A study of Mus musculus with 6 samples.

Results

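The immunity-related GTPase (IRG) family was followed in MCA205 tumors through 9 genes, *Irgm1*, *Irgm2*, *Igtp*, *Iigp1*, *Tgtp1*, *Tgtp2*, *Ifi47*, *Gm4951* and *Gm12250*. The members were taken by gene symbol from a list of interferon-induced GTPase genes. They are 9 of the 24056 genes with a read in any tumor, and all 9 had a mean of at least 10 normalized counts, as did 13963 genes in all. *Tgtp1* and *Tgtp2* have near-identical transcripts, so their sum is given beside each of them.

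Bulk RNA was sequenced from subcutaneous tumors of MCA205, a mouse fibrosarcoma line, grown in female C57BL/6J mice that were 7 weeks old. Control mice (n = 3 tumors) drank milliQ water. FF-10101 mice (n = 3 tumors) drank water with FF-10101, an irreversible inhibitor of FLT3 that also inhibits CSF1R, at 0.1 mg/mL from day 1 after inoculation, and all tumors were collected on day 8. The comparison asks how inhibition of these kinases alters gene expression in the whole tumor, where fewer cells of a type and less RNA per cell cannot be told apart.

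IRG proteins are GTPases that cells make in response to interferons, above all interferon-γ, and they defend the cell interior against vacuolar parasites and bacteria. Effector members, which include Iigp1 (Irga6), Tgtp1 and Tgtp2 (Irgb6), Ifi47 (Irgd) and Gm12250 (Irgb10), load onto the membrane around the pathogen and break it open. Regulatory members, Irgm1, Irgm2 and Igtp (Irgm3), sit on the membranes of the cell itself and hold the effectors inactive there. Promoters of interferon-induced genes often carry the gamma-activated site (GAS), through which interferon-γ acts, or the interferon-stimulated response element (ISRE), which IRF factors bind.

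The promoters of the members were read for both elements, because the members varied together across the tumors. Of the 9 members, 7 matched an entry in the RefSeq promoter table (GRCm38.p6), which holds 250 bases before and 50 bases after each start site. *Iigp1* and *Gm4951* had no entry. The letters TTCNNNGAA were searched for GAS, and GAAANNGAAA, or TTTCNNTTTC when read on the opposite strand, for ISRE. The 60 bases around the matches are printed 5′ to 3′ on the strand of the gene, with matched letters in capitals. *Gm12185*, an IRG gene outside the 9 members, is printed with them because it was the only other gene with the same spacing of both motifs.
Irgm1, chr11:48871413-48871472, minus strand: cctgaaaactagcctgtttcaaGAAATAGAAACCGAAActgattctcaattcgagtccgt
Irgm2, chr11:58214883-58214942, plus strand: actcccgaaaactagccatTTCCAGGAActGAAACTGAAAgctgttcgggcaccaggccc
Igtp, chr11:58199492-58199551, plus strand: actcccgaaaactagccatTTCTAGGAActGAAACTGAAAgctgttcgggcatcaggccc
Tgtp1, chr11:48992294-48992353, minus strand: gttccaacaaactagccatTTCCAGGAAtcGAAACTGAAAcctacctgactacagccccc
Tgtp2, chr11:49064253-49064312, minus strand: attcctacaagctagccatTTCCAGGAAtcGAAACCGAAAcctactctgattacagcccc
Gm12250, chr11:58183750-58183809, plus strand: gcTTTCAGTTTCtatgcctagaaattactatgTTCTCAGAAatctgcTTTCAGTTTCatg
Gm12185, chr11:48927228-48927287, minus strand: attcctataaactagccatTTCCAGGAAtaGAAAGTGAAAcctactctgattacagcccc

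*Igtp*, *Irgm2*, *Tgtp1* and *Tgtp2* shared 1 arrangement, a GAS followed after 2 bases by an ISRE, both on the strand of the gene. Of all 32851 promoter windows, 5 had this arrangement, and the fifth was that of *Gm12185*. The arrangement was chosen after the sequences were seen. Just upstream, the windows of the 4 members shared the run ctagccatttc, whose last 3 bases open the GAS, and the printed windows of *Igtp* and *Irgm2* were identical at 58 of 60 bases. The GAS began 45 bases before the start site in *Igtp*, 75 in *Irgm2*, 88 in *Tgtp1* and 81 in *Tgtp2*.

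*Irgm1* differed, with no GAS match and with ISRE matches that began 30 and 24 bases before the start site and overlapped each other. In *Gm12250*, a GAS match 61 bases before the start site lay between ISRE matches on the opposite strand, which began 91 and 46 bases before it. The window of *Ifi47* held neither set of letters, which says only that they were not in these 300 bases. In all, 5 of the 7 member windows held a GAS match, 6 held an ISRE match and 5 held both. Among all windows, 8.30% held a GAS match, 3.44% an ISRE match and 0.454% both. The member windows are not independent of each other, since those of *Igtp* and *Irgm2* are near-identical and *Tgtp1* and *Tgtp2* are copies. These are matches of letters, and binding was not measured here.

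**Figure D1:**
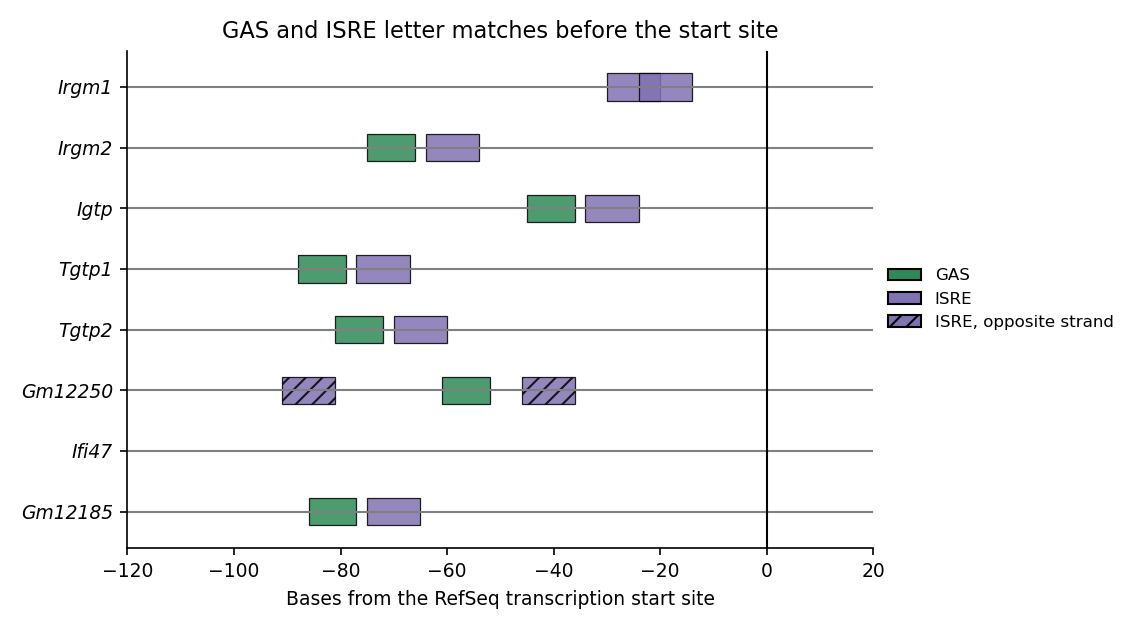
Matches to GAS and ISRE in the promoter windows of the 7 members with an entry and of *Gm12185*, placed by distance in bases from the RefSeq start site (vertical line at 0). Green boxes are GAS, purple boxes are ISRE and hatched boxes are ISRE on the opposite strand. *Irgm2*, *Igtp*, *Tgtp1*, *Tgtp2* and *Gm12185* have a GAS followed after 2 bases by an ISRE, and the line of *Ifi47* is empty.

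Total reads were 9143806 to 9643535 in Control tumors and 9277019 to 13258258 in FF-10101 tumors. Control tumor 1 stood apart from the other two, and limma's array weights gave it 0.139, the lowest of the 6 tumors. The weights were 5.39 for Control tumor 2, 8.08 for FF-10101 tumor 2 and 0.406 to 0.859 for the other 3, so the weighted fit rests mostly on 1 tumor per group. Values without this tumor are therefore given beside the tests of the members and the lists. The tumor was singled out after the data were seen. It had the highest IRG counts of the Control tumors, so leaving it out raises the fold changes of the members. All 7 mesenchymal markers of the fibrosarcoma label had reads, with a summed normalized count (reads divided by the authors' size factor) of 104109 to 259030 in Control and 195913 to 293351 in FF-10101 tumors.

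In the summed counts of the IRG family the groups lay apart, while in limma with all 6 tumors no single member passed an adjusted p of 0.05 (0.229 to 0.245). The 9 members summed to 46223, 10760 and 8894 normalized counts in Control tumors 1, 2 and 3, and to 62141, 61426 and 74746 in FF-10101 tumors 1, 2 and 3. Every FF-10101 tumor lay above every Control tumor, and Control tumor 1 was nearer to the FF-10101 tumors than to the other Control tumors. The mean was 21959 ± 21034 (SD, n = 3) in Control and 66104 ± 7493 (SD, n = 3) in FF-10101 tumors, a 3.01-fold difference. The FF-10101 mean was 1.43-fold that of Control tumor 1 and 6.73-fold the mean of Control tumors 2 and 3.

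As a share of all reads, the family took 0.426% in Control tumor 1 (Wilson 95% interval 0.422 to 0.430), 0.108% in Control tumor 2 (0.106 to 0.110) and 0.0873% in Control tumor 3 (0.0854 to 0.0892). The share was 0.614% (0.610 to 0.618), 0.610% (0.605 to 0.615) and 0.730% (0.725 to 0.735) in FF-10101 tumors 1, 2 and 3. The spread between tumors was far wider than these intervals, which cover counting error only.

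**Figure D2:**
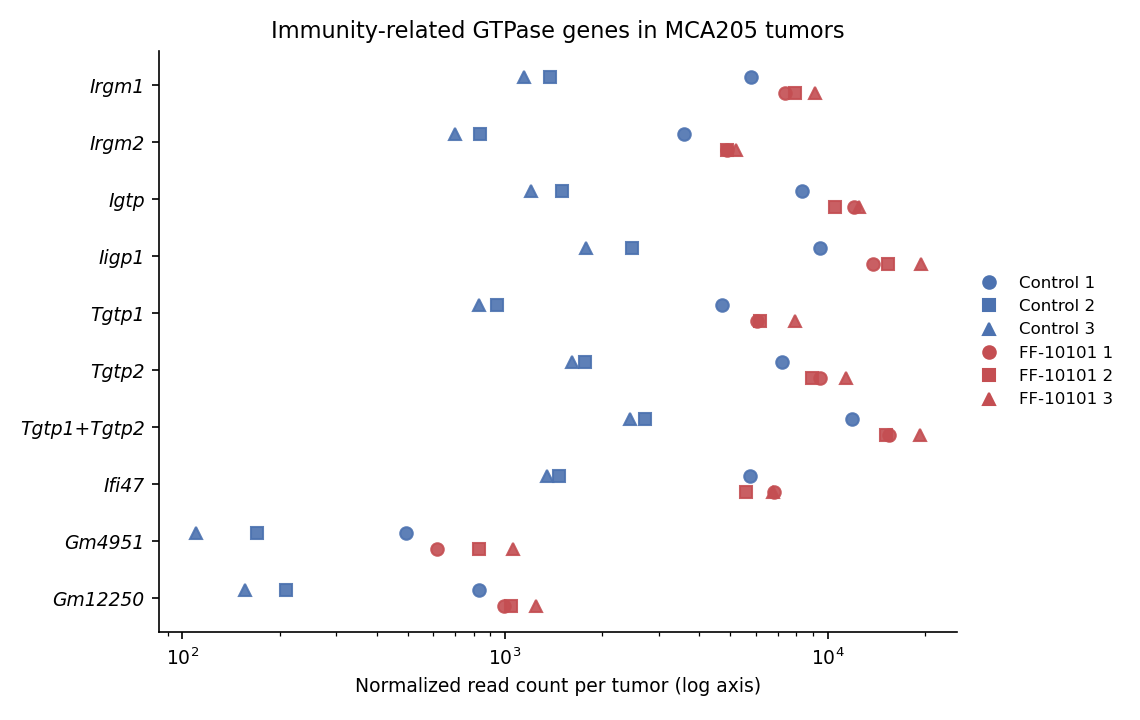
Normalized read count (log axis) of each IRG member and of *Tgtp1* and *Tgtp2* summed, with 1 point per tumor. Blue points are Control and red points FF-10101 tumors, and the shape gives the tumor number. Control tumor 1 lies close to the FF-10101 tumors in every row, and only for *Ifi47* does it pass one of them (5766 against 5605 normalized counts).

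Among the regulatory members, *Irgm1*, which is needed for resistance to intracellular bacteria and localizes to the Golgi, had 5786, 1383 and 1148 normalized counts in Control and 7376, 7953 and 9142 in FF-10101 tumors. *Irgm2*, another Golgi-resident member, had 3598, 836 and 702 in Control and 4883, 4879 and 5210 in FF-10101 tumors. *Igtp*, a member found on the endoplasmic reticulum, had 8341, 1505 and 1202 in Control and 12075, 10561 and 12562 in FF-10101 tumors. For all 3 genes the groups did not overlap, and Control tumor 1 lay between the other Control tumors and the FF-10101 tumors. *Irgm2* was the most even member within the FF-10101 group, where its highest tumor was 1.07-fold its lowest.

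Differences between the groups are given as log2 fold changes on log2(normalized count + 1), from limma over all 13963 genes with Benjamini-Hochberg adjustment. *Irgm1* was higher in FF-10101 tumors by 1.95 (SE 0.54), *Irgm2* by 1.96 (SE 0.55) and *Igtp* by 2.24 (SE 0.64). The same values were 2.69, 2.70 and 3.12 without Control tumor 1.

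The effector gene *Iigp1* was the most abundant member by count, with 9493, 2474 and 1785 normalized counts in Control and 13854, 15409 and 19440 in FF-10101 tumors. Its protein, Irga6, gathers on the vacuole of Toxoplasma. The lowest FF-10101 tumor was 1.46-fold the highest Control tumor, the widest gap of any member, and the log2 fold change was 2.21 (SE 0.55). *Gm4951*, a gene whose transcript aligned to that of *Iigp1* at 86.5% identity over 1280 bases, was the scarcest member. It had 494, 171 and 110 normalized counts in Control and 614, 829 and 1059 in FF-10101 tumors. These groups did not overlap either, and the log2 fold change was 1.95 (SE 0.50). *Gm4951* varied most within the FF-10101 group, by 1.72-fold from its lowest to its highest tumor.

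*Tgtp1*, which encodes a GTPase first described in T cells, had 4713, 947 and 829 normalized counts in Control and 6049, 6172 and 7903 in FF-10101 tumors. Its copy *Tgtp2* had 7200, 1766 and 1610 in Control and 9482, 8970 and 11398 in FF-10101 tumors. The transcripts of both genes were 99.8% identical over 2811 aligned bases, so the split of reads between them is an estimate. *Tgtp1* took 34.0% to 39.6% of their joint reads in Control and 38.9% to 40.9% in FF-10101 tumors. Summed, they had 11913, 2712 and 2438 normalized counts in Control and 15532, 15142 and 19301 in FF-10101 tumors, with no overlap between the groups. The log2 fold change of the sum was 1.95 (SE 0.55, limma adjusted p = 0.229), between those of *Tgtp1* (2.11, SE 0.59) and *Tgtp2* (1.85, SE 0.52).

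*Ifi47* had 5766, 1468 and 1352 normalized counts in Control and 6812, 5605 and 6783 in FF-10101 tumors. It was the only member whose groups overlapped, since Control tumor 1 was above FF-10101 tumor 2. Its log2 fold change of 1.50 (SE 0.50) was the smallest of the 9. *Gm12250*, whose protein Irgb10 attacks the membranes of bacteria, had 833, 210 and 156 normalized counts in Control and 994, 1047 and 1250 in FF-10101 tumors. Its groups did not overlap, and the log2 fold change was 1.85 (SE 0.55).

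With all 6 tumors, 0 of the 9 members passed an adjusted p of 0.05 in limma, where 6 of 13963 genes did (0.0430%). The adjusted p was 0.229 for 8 members and 0.245 for *Ifi47*. At an unadjusted p under 0.05, 9 of 9 were higher in FF-10101 tumors, against 8.77% of all genes, with p from 0.00408 (*Iigp1*) to 0.0180 (*Ifi47*). limma-voom on the recovered reads also called 0 members, while limma with array weights called 9, in a fit that called 32.0% of all genes higher (8365 of 13963 in either direction). Every FF-10101 tumor was above every Control tumor for 8 of 9 members, against 10.9% of all genes. The exact two-sided permutation test gave p = 0.1 for these 8, the smallest that 3 against 3 tumors allow, and p = 0.2 for *Ifi47*.

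Without Control tumor 1, 9 of 9 members rose by limma with an adjusted p from 9.02e-05 to 0.00115, where 12.0% of all genes were called higher. The log2 fold changes were then 2.18 (*Ifi47*) to 3.12 (*Igtp*), compared with 1.50 to 2.24 in all 6 tumors. Control tumor 1 had the highest count of every member in its group, and with any other tumor left out 0 members passed. The median over the members was 1.95 with all tumors and 2.69 without Control tumor 1. The median of all genes tested was 0.02 and 0.04 in the same fits. In the order of log2 fold change over 13963 genes, the members held ranks from 100 (*Igtp*) to 387 (*Ifi47*).

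**Figure D3:**
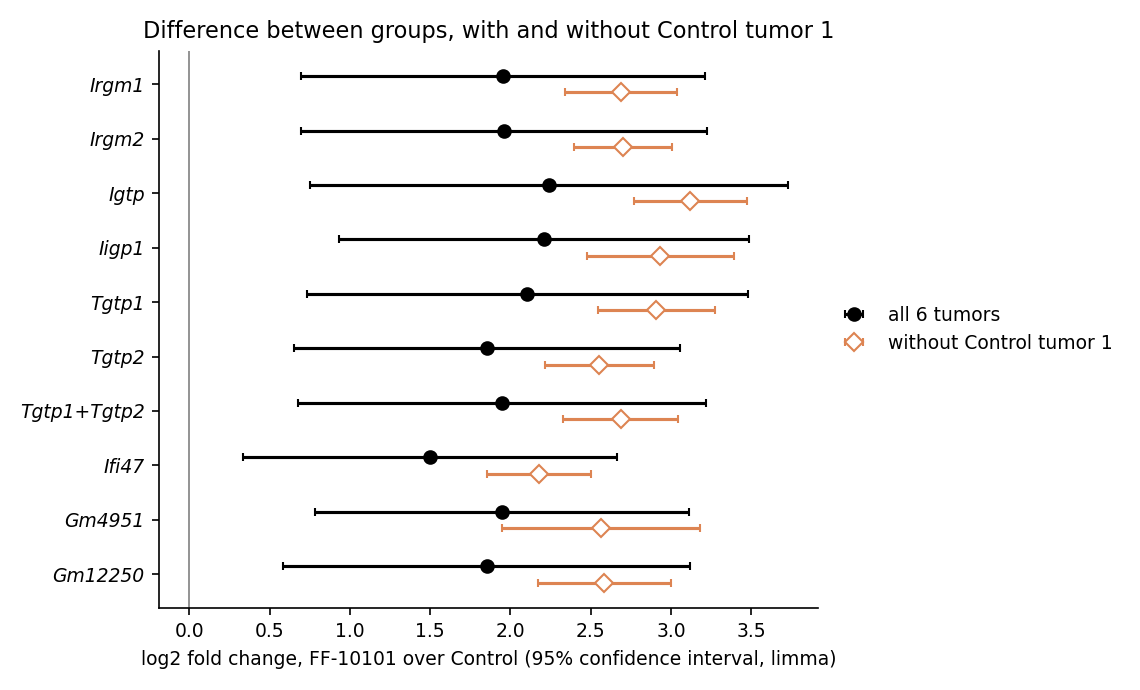
log2 fold change of each member in FF-10101 over Control tumors, with its 95% confidence interval from limma, for all 6 tumors (black circles) and without Control tumor 1 (orange diamonds). With 6 tumors the values run from 1.50 to 2.24 with wide intervals, and without Control tumor 1 they run from 2.18 to 3.12 with narrower ones.

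To see how members differed among themselves, the log2 value of each was set against the mean log2 value of the 9 members in the same tumor. On this scale *Ifi47* was 0.64 to 0.90 above the family mean in Control tumors and 0.19 to 0.50 above it in FF-10101 tumors, a difference of -0.46 between the group means. *Iigp1* went the other way, from 1.30 to 1.46 above the mean in Control to 1.52 to 1.71 in FF-10101 tumors, a difference of 0.25. The groups also lay apart for *Gm12250*, by a smaller difference of -0.11. *Igtp* had a difference of 0.28, but Control tumor 1 (1.17) lay among the FF-10101 tumors (1.08 to 1.32). *Irgm1* followed the family mean most closely, with a root mean square deviation of 0.03 over the 6 tumors, while *Ifi47* had the largest, 0.26. These differences are descriptions, and with 3 tumors a group the exact permutation test could not pass 0.05.

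**Figure D4:**
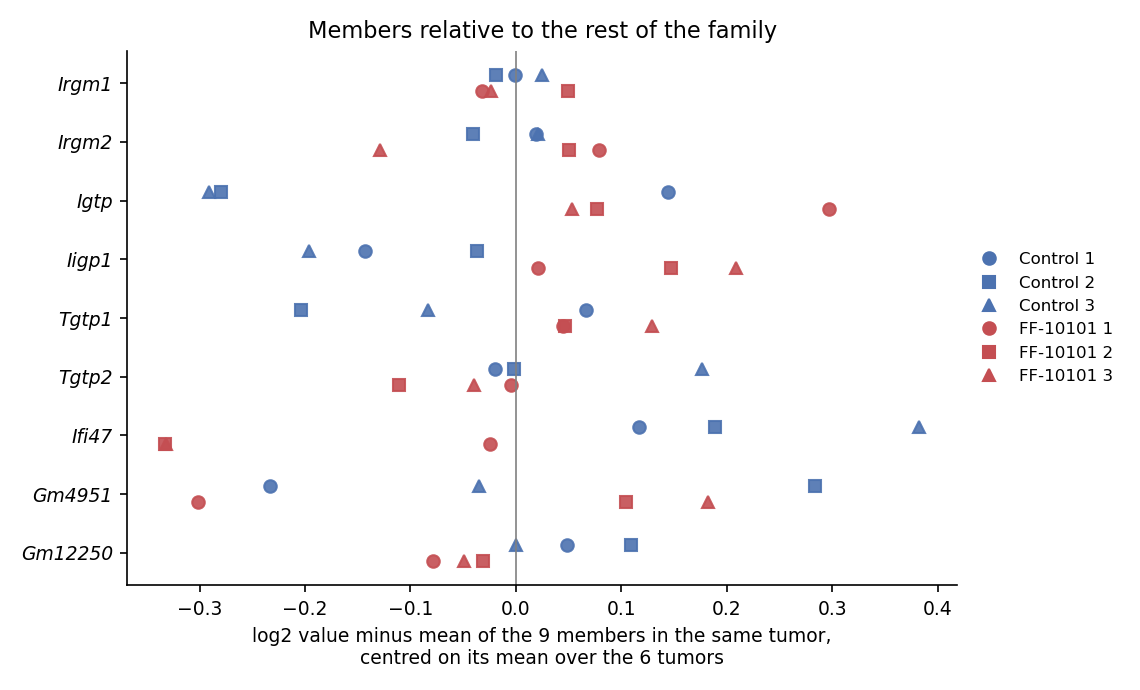
log2 value of each member minus the mean of the 9 members in the same tumor, centred on its own mean over the 6 tumors. Points are tumors, with Control in blue and FF-10101 in red. The 3 FF-10101 tumors lie left of the 3 Control tumors for *Ifi47* and *Gm12250* and right of them for *Iigp1*, while the groups overlap for the other 6 members.

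Levels were compared between members per kilobase of transcript (normalized counts per kb), with the mean length of the annotated transcripts in GENCODE vM21 (GRCm38). The authors counted on vM27, another release, so lengths and shared exons can differ from those behind the counts. In FF-10101 tumors the order was *Igtp* (6262 ± 557, SD, n = 3), *Iigp1* (5751 ± 1021), *Tgtp1* (5082 ± 785) and *Ifi47* (4863 ± 523). Neighbours among these 4 had overlapping ranges over the tumors. *Irgm1* (3758 ± 415) and *Tgtp2* (3541 ± 455) came next and overlapped each other. *Irgm2* (1432 ± 54.4), *Gm12250* (861 ± 106) and *Gm4951* (315 ± 84.1) followed, each with a range apart from its neighbours. The annotation calls *Gm12250* a processed pseudogene and gives it 1 transcript of 1274 bases, on which its level rests. The level of *Tgtp1* depends on the transcript chosen, since with the longest transcript it was 2376, and that of *Ifi47* was then 3610.

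In Control tumors the mean level per kb was 2174 for *Ifi47*, 1966 for *Igtp*, 1638 for *Tgtp1* and 1624 for *Iigp1*. The order of these 4 is not firm. *Igtp* was above *Ifi47* with the longest transcripts (1821 against 1614) and in Control tumor 1 (4452 against 4381). *Iigp1* was above *Tgtp1* with the longest transcripts (1469 against 766) and in Control tumors 2 (877 against 717) and 3 (632 against 628). The order of the last 3 members, *Irgm2* (491), *Gm12250* (314) and *Gm4951* (97.6), was the one seen in FF-10101 tumors. Some reads cannot be assigned to 1 gene. *Irgm2* and *Igtp* share 162 exonic bases on the same strand, which are 8.01% of those of *Igtp*, *Tgtp1* shares 6.96% of its own with *Gm12185*, and *Ifi47* shares 4.49% with *Olfr56* and 4.29% with *Gm12188* on the opposite strand.

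Of the other 8 IRG genes listed, 6 had enough counts to test, and all 6 had a log2 fold change above 0 with a median of 0.96. None passed an adjusted p of 0.05 in limma. At an unadjusted p under 0.05, 4 were higher, against 8.77% of all genes, and 3 had groups apart, against 10.9%. Of the 6, 4 rose without Control tumor 1, against 12.0% of all genes. *F830016B08Rik* had 67.5, 64.1 and 14.4 normalized counts in Control and 118, 356 and 436 in FF-10101 tumors, a log2 fold change of 2.69. Here Control tumor 1 lay beside Control tumor 2, which it did not for the members. *Gm12185*, with the promoter printed above, had 297, 94.5 and 68.8 in Control and 464, 489 and 480 in FF-10101 tumors, a log2 fold change of 1.93.

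The remaining 4 had log2 fold changes of 1.08 (*9930111J21Rik2*), 0.85 (*Gm5431*), 0.55 (*Irgq*) and 0.47 (*9930111J21Rik1*). *Irgq*, a distant relative, had 236, 230 and 158 normalized counts in Control and 260, 305 and 342 in FF-10101 tumors, and its groups did not overlap. *Irgc1* and *Gm12187* were under the minimum count.

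The genes whose course over the 6 tumors was most like the family mean were found by the root mean square difference of centred log2 values. They were *Gbp4* (0.07), *Bicc1* (0.11), *Gbp6* (0.15), *S100a9* (0.15) and *Gm12185* (0.15). *Gbp4* and *Gbp6* encode guanylate-binding proteins, which act with IRG proteins at pathogen membranes. *Gbp4* had 2425, 652 and 469 normalized counts in Control and 3519, 3387 and 3996 in FF-10101 tumors. *Bicc1*, which encodes an RNA-binding protein, had 342, 90.2 and 84.3 in Control and 458, 513 and 603 in FF-10101 tumors. *S100a9* encodes an abundant neutrophil protein and had 216, 60.9 and 47.7 in Control and 347, 262 and 400 in FF-10101 tumors. Control tumor 1 lay between the remaining Control tumors and the FF-10101 tumors in all 3.

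The 11 guanylate-binding protein genes had a median log2 fold change of 1.98, beside 1.95 for the IRG members. All 11 were above 0, and 0 passed the adjusted threshold in limma. At an unadjusted p under 0.05, 9 were higher, against 8.77% of all genes. In 7 the groups lay apart, against 10.9% of all genes. Without Control tumor 1, 11 of 11 rose, with a median of 2.71, where 12.0% of all genes were called higher. *Gbp10* had the largest value (3.04), from 359, 36.9 and 14.4 normalized counts in Control and 290, 556 and 728 in FF-10101 tumors. *Gbp2b* had the smallest (0.50), with 1050, 47.8 and 33.3 in Control against 90.9, 230 and 233 in FF-10101 tumors, so that Control tumor 1 was the highest of all. Of 6 promoter windows of this family (5 genes) in the table, 5 held an ISRE match and 2 a GAS match.

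The 14 genes listed for interferon-γ signaling, not all of which act upstream of the family, had a median log2 fold change of 0.51, with 13 above 0. None passed the adjusted threshold in limma. At an unadjusted p under 0.05, 6 were higher and 1 was lower, against 8.77% and 7.49% of all genes. Without Control tumor 1, 12 rose and 1 fell, with a median of 0.94, where 12.0% of all genes were called higher and 9.88% lower.

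The ligand gene *Ifng* was sparse, with 130, 23 and 10 reads in Control and 173, 106 and 212 reads in FF-10101 tumors. In normalized counts it was 146, 25.0 and 11.1 against 132, 115 and 188, so Control tumor 1 lay within the FF-10101 range. Its log2 fold change of 1.99 was near those of the members (SE 0.80, limma adjusted p = 0.290), and it was 3.01 without Control tumor 1 (limma adjusted p = 0.00272). The receptor gene *Ifngr1* was at 0.17 with all tumors and at 0.46 without that tumor, past the threshold in neither fit. *Ifngr2*, the other receptor chain, was at -0.38 with groups apart, from 1475, 1627 and 1920 in Control to 1216, 1381 and 1250 in FF-10101 tumors, and at -0.46 without Control tumor 1.

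For the other genes named from the list, the log2 fold change with all 6 tumors, where none passed, is followed by that without Control tumor 1, where each passed an adjusted p of 0.05 in limma. Of the receptor kinases, *Jak2* was at 0.80 and 1.04 and *Jak1* at 0.43 and 0.72. *Stat2*, which encodes a transcription factor of the interferon response, had 962, 417 and 366 normalized counts in Control and 1198, 1015 and 1102 in FF-10101 tumors, with no overlap and log2 fold changes of 1.06 and 1.49. Its partner *Irf9* was at 0.51 and 0.86. Among the other transcription factors, *Irf1* was at 0.77 and 1.10, and *Irf8* at 0.14 and 0.61. The MHC class I activator *Nlrc5* had 710, 502 and 486 in Control and 1052, 857 and 868 in FF-10101 tumors, with groups apart and values of 0.72 and 0.90, while the class II activator *Ciita* was at 0.40 and 0.98. The inhibitors of the pathway were at 0.50 and 0.98 (*Socs1*) and at 0.39 and 0.50 (*Ptpn2*, groups apart).

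Genes of the type I interferon response had a median log2 fold change of 0.86 over 18 tested, with 16 above 0. In limma 0 passed the adjusted threshold, and 9 were higher at an unadjusted p under 0.05, against 8.77% of all genes. The groups lay apart for 8, against 10.9% of all genes. Without Control tumor 1, 15 rose with a median of 1.18, against 12.0% of all genes. *Ifi44*, an interferon-induced gene, had the largest value (1.77) and *Irf3*, a factor that starts interferon production, the smallest (-0.40). *Ifnb1* had no read in any tumor.

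The 15 autophagy and ubiquitin genes listed had a median of 0.15. Their values ran from -0.43 for *Atg5*, part of the conjugation machinery that IRG proteins need to reach vacuoles, to 0.37 for the ubiquitin ligase gene *Traf6*. In limma 0 passed the adjusted threshold and 1, *Atg5*, was lower at an unadjusted p under 0.05. Both counts were near the shares of all genes (7.49% lower in that way, and 12.0% called higher without Control tumor 1, where 2 of the 15 rose, *Gabarap* and *Sqstm1*, and the median was 0.31). Of their 11 promoter windows, 2 held a GAS match and 0 an ISRE match, beside 8.30% and 3.44% of all windows.

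**Figure D5:**
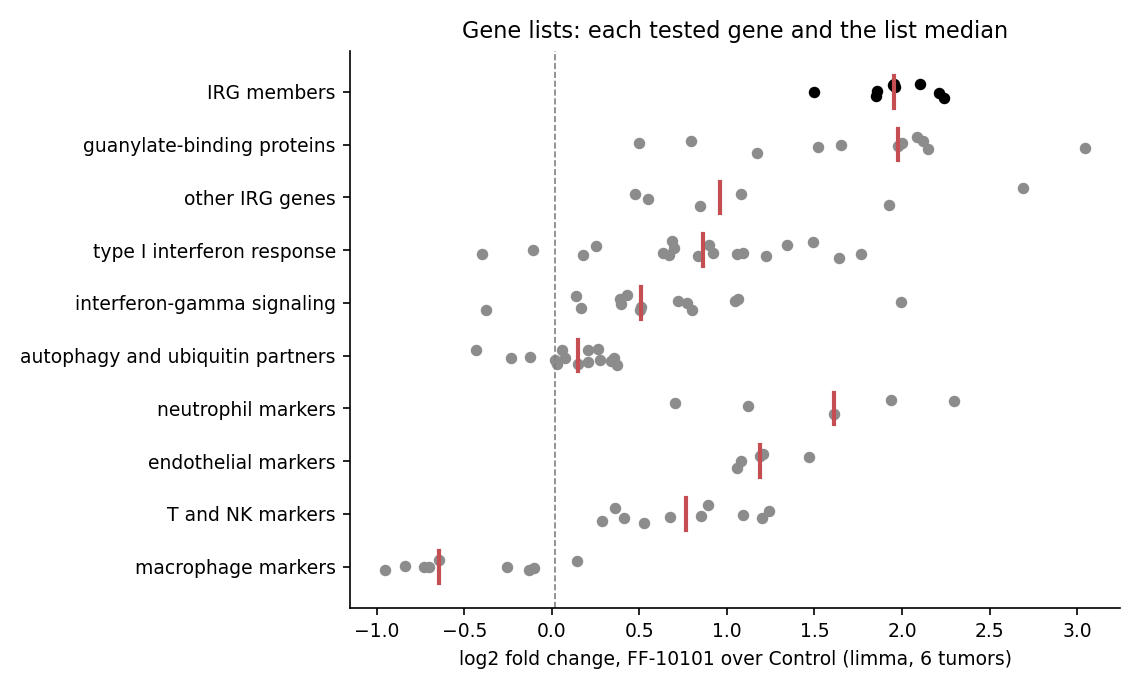
log2 fold change of every tested gene (points) and the median (red bar) for the IRG members and 9 lists, from limma with 6 tumors. The dashed line is the median of all genes tested, 0.02. The members and the guanylate-binding proteins have medians of 1.95 and 1.98, and macrophage markers have a median of -0.65.

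In limma with all 6 tumors, no marker of any cell type listed passed an adjusted p of 0.05, and none of the marker genes was without a read. Of 9 macrophage markers, 8 had a log2 fold change below 0 (median -0.65). In 5 the groups lay apart, as they did in this direction for 9.37% of all genes. At an unadjusted p under 0.05 in limma 5 were lower, against 7.49% of all genes. Their summed normalized count was 36975 to 64757 in Control and 23353 to 32526 in FF-10101 tumors. *Adgre1*, which encodes F4/80, had the lowest value (-0.95) and *Mertk* the highest (0.14). Without Control tumor 1 the median was -0.38, 5 of 9 were below 0 and 2 fell, *Adgre1* and *C1qc*, against 9.88% of all genes. *Cd68* (0.28), *Csf1r* (0.14) and *Fcgr1* (0.30) were then above 0.

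The 5 neutrophil markers summed to 558 to 1182 in Control and 1481 to 2177 in FF-10101 tumors (median log2 fold change 1.61). Of the 5, 4 were higher at an unadjusted p under 0.05 in limma, against 8.77% of all genes. Without Control tumor 1, 4 rose (median 2.13), against 12.0% of all genes. The values with all tumors ran from 0.70 for *Retnlg* to 2.30 for *Cxcr2*, the chemokine receptor of neutrophils. The 5 endothelial markers summed to 1235 to 4315 in Control and 4294 to 5034 in FF-10101 tumors (median 1.19), with *Tek* at 1.47 and *Cdh5* at 1.06. All 5 were higher at an unadjusted p under 0.05, and 5 rose without Control tumor 1 (median 1.68), beside the same shares of all genes.

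The 10 T and NK markers summed to 1008 to 3654 in Control and 1727 to 3713 in FF-10101 tumors, with Control tumor 1 the highest of its group. Their median was 0.77, all 10 were above 0, and none had an unadjusted p under 0.05 in limma, where 8.77% of all genes were higher. *Klrb1c* (NK1.1) was at 1.24 and *Cd3d* at 0.28. Of the 10, 6 rose without Control tumor 1 (median 1.28), against 12.0% of all genes. Of the mesenchymal markers, 6 of 7 were above 0 (median 0.48), from -0.16 for *Vim* to 1.01 for *Col3a1*. Of the 7, 2 were higher at an unadjusted p under 0.05, and 2 rose without Control tumor 1 (median 0.57). The shares of all genes were 8.77% and 12.0% in these fits.

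Markers of neighboring tissue differed between single tumors. The keratinocyte markers summed to 919 in FF-10101 tumor 1 and to 19.6 to 152 in the other 5 tumors, while skeletal muscle markers summed to 1627 to 5594 and adipocyte markers to 234 to 1103 over all 6. The 4 B cell markers, of which 1 reached the minimum mean of 10, summed to 39.1 to 71.1. The part of the cell types in the IRG values was not tested.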

How the data were processed

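Bulk RNA sequencing of 6 MCA205 tumors (3 Control, 3 FF-10101, grouped by the sample titles) was analysed. The authors trimmed reads with fastp version 0.19.5, quantified them with Salmon version 1.5.1 on GENCODE vM27 and used DESeq2 version 1.22.1. The deposited values are on a log2 scale and match a variance-stabilizing transformation by DESeq2, 1 per gene and tumor for 54309 identifiers, of which 51484 were named from GENCODE vM21. The inverse gave whole reads for 100% of values (tolerance 1e-06), and normalized counts are reads divided by the size factor. Reads of near-identical genes are split by estimation in Salmon.

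With R version 4.3.3 and limma version 3.58.1 (lmFit, eBayes with a trend), log2(normalized count + 1) was compared between the groups over 13963 genes (mean normalized count of 10 or more), with Benjamini-Hochberg adjustment. The scale understates fold changes of scarce genes. The labels number the tumors without naming the mice, so p-values measure only the spread between these tumors. Depth was 9143806 to 13258258 reads per tumor.

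The limma fit was tested on simulated counts. These gave every gene the same dispersion and set no tumor apart, so the test does not cover a tumor like Control tumor 1. The members and gene lists were chosen with earlier results of these data known. Named genes are all members, the tested genes of the other IRG and interferon-γ lists, the largest rise and fall of each other list, and the 5 genes most like the family, and further genes were named after their values were seen. The values of 1 gene of the interferon-γ list, which is part of its counts, are not reported here. Promoters are from RefSeq, and sequences were compared with BLAST version 2.17.0. Alternatives were pseudocounts of 0.5 and 10, no minimum, a minimum mean of 50, quantile normalization, scaling by the 75th percentile, array weights, a replicate block, each tumor left out in turn, the deposited values used directly, and limma-voom. For members and lists, giving the fit without Control tumor 1 beside the main one was chosen after seeing the data.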

Additional observations from a re-analysis of the deposited data

How the results depend on the processing

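Under 16 alternatives, 144 of 144 log2 fold changes of the 9 members stayed above 0, from 1.13 to 3.12, and 126 kept their side of the adjusted p threshold. The 18 others were those with array weights and those without Control tumor 1. The number of members past an adjusted p of 0.05 in limma, 0 with all 6 tumors, was 9 with array weights, and 0 to 9 when each tumor was left out in turn, with 9 without Control tumor 1 and 0 without any other. For *Tgtp1* and *Tgtp2* summed, the log2 fold change was 2.48 with array weights and 1.54 (without Control tumor 3) to 2.69 (without Control tumor 1) when each tumor was left out. The adjusted p of the sum over all alternatives ran from 5.06e-06 to 0.648. The count of all genes past the threshold, 6 in the report, was 17 with no minimum, 3 with a mean of at least 50, 8365 with array weights, 3051 without Control tumor 1 and 1 to 5 without any other tumor. Leaving out a Control tumor leaves 2, and the cause of these moves was not tested.

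With the replicate number as a replicate block, the sum kept its log2 fold change of 1.95 with an adjusted p of 0.502, 0 members were called, and 1 gene of 13963 passed. Deviations of same-numbered tumors from their group means correlated at -0.29, -0.04 and -0.28, so the numbers were not taken to pair the tumors. With the longest transcript in place of the mean length, the FF-10101 level per kb moved from 5082 to 2376 for *Tgtp1* and from 4863 to 3610 for *Ifi47*. The lowest count of a member in any tumor was 99 reads, and the effect of depth was not tested.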

Other observations

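*Gm5970*, an IRG-like gene outside the lists that was chosen after its transcript aligned to that of *Iigp1* at 88.2% identity, had 6.75, 4.35 and 2.22 normalized counts in Control and 23.7, 20.6 and 24.9 in FF-10101 tumors. Every FF-10101 tumor was above every Control tumor, as for 10.9% of all genes tested, and the Control values rest on a few reads each.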
